A study of Caenorhabditis elegans with 2 samples.

Results

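The E2F, Rb and cell cycle genes are 9 named genes of Caenorhabditis elegans, out of 19973 protein-coding genes on the 6 nuclear chromosomes of the Ensembl WBcel235 annotation. They are efl-1 and efl-2, which encode E2F-like transcription factors, dpl-1, which encodes their DP partner, lin-35, the worm's Rb gene, cyd-1 and cdk-4, which encode cyclin D and its kinase, cye-1, which encodes cyclin E, cki-1, which encodes a cyclin-dependent kinase inhibitor, and pcn-1, which encodes the sliding clamp PCNA. The genes were listed by name, with earlier results of these data known. A binding region was tied to a gene when its summit, the position of highest enrichment, lay between 2000 bp upstream of the gene's start and the gene's end. Of the 30000 regions in the list pooled over both replicates, 23 lay in the windows of these 9 genes, and 4 of those belonged to the thresholded set, the strongest pooled regions that passed the authors' reproducibility filter.

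ZTF-3, a zinc finger protein, was immunoprecipitated with its bound chromatin, which was sequenced, in 2 biological replicates, labelled 4 and 5, which form a single group. Both came from strain OP614, whose integrated transgene wgIs614 carries ztf-3 tagged with TY1, EGFP and 3xFLAG together with a working unc-119 copy, in worms with the unc-119(tm4063) mutation. The worms were young adults of pooled sex, 58 h old, grown from L1 larvae starved after bleaching, and the chromatin was precipitated with an antibody against GFP, although one label names ztf-3 as the antibody. Both replicates share this 1 transgenic line and whole animals were used, so binding in some cells cannot be told apart from weaker binding in many, and no untagged strain was analysed here, so whether a region marks ZTF-3 itself was not tested.

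In animals, E2F and DP proteins pair to bind the promoters of genes needed for DNA replication, and Rb family proteins hold those genes down until cyclin D with its kinase, and then cyclin E with CDK2, phosphorylate Rb. In C. elegans LIN-35 acts with EFL-1 and DPL-1 in the DREAM complex, whose LIN-54 subunit contacts DNA, and loss of these genes alters the cell cycle and the repression of germline genes in somatic cells. PCNA and cyclin E genes are E2F targets in mammals.

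The regions upstream of efl-1 and pcn-1 are printed because both lie at promoters of the pathway and both hold letters of an E2F site. Each sequence is 201 bp centred on the pooled summit, from the WBcel235 genome, read 5′ to 3′ on the minus strand, which is the strand of both genes. That of efl-1 is chrV:16965754-16965954 and that of pcn-1 is chrIV:4049612-4049812. Capitals mark matches on either strand to the E2F letters TTTCCCGC or TTTGGCGC or TTTCGCGC or TTTGCCGC, to the cell cycle homology letters TTTGAA or TTCGAA, which are the kind LIN-54 binds, and to AGAGAC or ACGCAG or GACGCA or GAGAGA or ACACAC, which were frequent at the summits of this experiment in an earlier analysis.
efl-1: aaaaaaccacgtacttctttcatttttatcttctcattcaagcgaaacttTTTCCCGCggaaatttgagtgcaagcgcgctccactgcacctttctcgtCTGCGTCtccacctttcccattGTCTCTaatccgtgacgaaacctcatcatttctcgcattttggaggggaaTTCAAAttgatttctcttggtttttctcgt
pcn-1: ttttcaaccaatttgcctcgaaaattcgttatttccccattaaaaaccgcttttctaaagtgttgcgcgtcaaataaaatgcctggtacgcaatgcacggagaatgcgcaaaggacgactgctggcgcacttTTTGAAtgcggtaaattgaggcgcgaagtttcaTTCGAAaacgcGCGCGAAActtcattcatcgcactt

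In the efl-1 sequence the capitals mark, in order, an E2F match, the overlapping reverse complements of ACGCAG and GACGCA, the reverse complement of AGAGAC, and a TTTGAA match on the other strand. In the pcn-1 sequence they mark TTTGAA and then TTCGAA, followed by an E2F match on the other strand.

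A thresholded region was found at 4 of the 9 genes, pcn-1, cye-1, efl-1 and lin-35, and the other 5 had candidate regions only. In the genome as a whole, 545 of 19973 genes (2.73%) held such a summit by the same window, so the 4 of 9 stands above that background as a count, but the list was drawn up with part of this result known and no test is given. At 3 of the 4, pcn-1, efl-1 and lin-35, the summit lay in the promoter window, which runs 1000 bp up and 200 bp down from a start site, where 1.55% of all genes had one. With the strongest regions of replicate 5 alone, in the same number, this promoter count was 0, where 1.42% of all genes had one, and with those of replicate 4 alone it was 3, where 1.52% had one. A candidate region, which may be a peak or background, was present at 9 of 9 genes and at 69.6% of all genes. The strongest region of a listed gene had a median signal of 38.3, against 32.4 over the 13898 genes with any candidate. Signal is the authors' own strength score of a region against the control, with no error given. The windows of the listed genes were longer, with a median of 5599 bp against 4027 bp over all genes, and the part of window length in these counts was not tested.

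**Figure D1:**
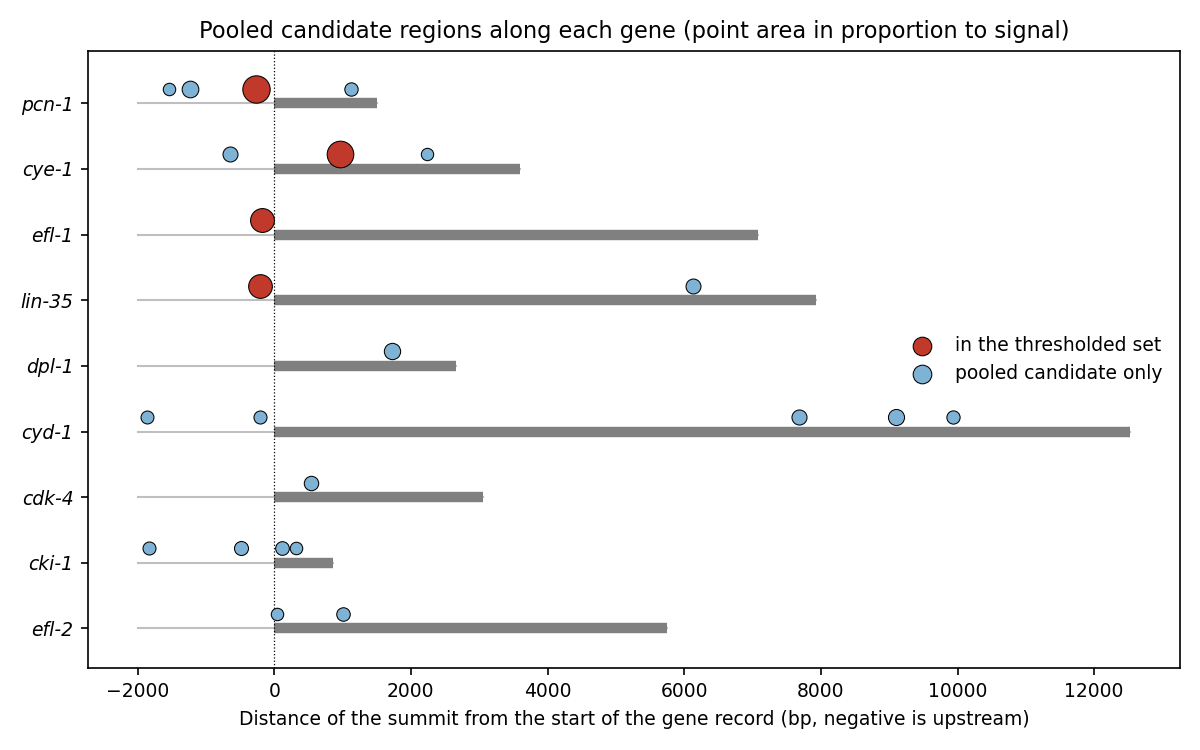
Summits of the pooled candidate regions along the 9 genes, as distance in bp from the start of each gene record, with upstream to the left; thick bars are the genes, thin bars the 2000 bp upstream, and point area is in proportion to signal. The 4 thresholded regions (red) have signals of 81.0 to 108, and the strongest of the others (blue) has 40.1.

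Among the E2F and DP genes only efl-1 (WBGene00001161, V:16958590-16965675), whose product is the E2F member of the DREAM complex, had a thresholded region. It lay on chromosome V at 16965632-16966075, upstream of the gene, with its summit 179 bp from the start site. Its signal was 81.8 in the pooled list, which placed it at rank 395, and its −log10 q was 2.05. In replicate 4 the region stood at signal 58.3 and rank 498, and in replicate 5 at signal 21.6 and rank 897. The 3 lists have different signal scales, so ranks are the values to set side by side. Both replicates placed the summit close to the pooled one, 2 bp away in replicate 4 and 40 bp away in replicate 5. The same region lay 960 bp upstream of the start of fbxa-90, an F-box gene on the other side that reads away from efl-1. In the pooled list 403 genes (2.02%) had a stronger region in their window than efl-1, and in replicates 4 and 5 the shares were 2.49% and 4.53%.

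The second E2F-like gene, efl-2 (WBGene00001162, II:13406140-13411895), had the weakest top region of the 9, with a signal of 26.3 at rank 17466, in its first intron 1007 bp past the start. A further candidate in its coding sequence 40 bp past the start had a signal of 22.3. Replicate 4 held both summits in a region and replicate 5 held neither, and 51.7% of all genes had a stronger pooled region than efl-2. The DP gene dpl-1 (WBGene00001061, II:9169910-9172565) had 1 pooled candidate, of signal 38.3 and rank 5487, in coding sequence 1721 bp past its start. That position is also in an intron of T23G7.2, a gene that overlaps dpl-1 on the other strand, so the region cannot be given to either. It was at rank 7239 in replicate 4 and in no region of replicate 5, where the gene's strongest candidate was at rank 9550 in the 3′ UTR.

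At lin-35 (WBGene00003020, I:5807709-5815637), the single Rb family gene of the worm, the thresholded region lay on chromosome I at 5807281-5807724, between the gene and its divergent neighbour vps-51, which encodes a vesicle tethering protein. The summit was 206 bp upstream of lin-35 and 212 bp upstream of vps-51, so it was about equally near both. Its pooled signal was 81.0, rank 407, with a −log10 q of 2.06. Replicate 4 gave the region signal 59.8 and rank 467, and replicate 5 gave it signal 20.7, where 5.32% of all genes had a stronger region. The summits were 15 bp and 11 bp from the pooled one. A second pooled candidate in coding sequence 6124 bp past the start had a signal of 32.2 and was held by replicate 4 alone, at rank 5074.

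Of the cyclin and kinase genes, cye-1 (WBGene00000871, I:6780799-6784397) had a thresholded region and the cyclin D pair did not. The cye-1 region was on chromosome I at 6781545-6781988, inside the gene's second intron, 961 bp past the nearer of its 2 start sites. It had a pooled signal of 102, rank 218 and a −log10 q of 2.16. The region was at rank 227 with signal 75.6 in replicate 4 and at rank 477 with signal 25.35 in replicate 5. It was the only one of the 4 that ranked, in both replicates, among as many of the strongest regions as the thresholded set holds, and its summits matched within 1 bp. The tRNA gene C37A2.t1 lies within the same intron, and the summit was 36 bp upstream of it. Of all thresholded regions, 121 (22.7%) had a tRNA, snoRNA, snRNA or miRNA gene within 500 bp, and the part of the tRNA gene in the cye-1 region was not tested. The other 3 thresholded regions were 18217 bp or more from such a gene. At the cye-1 promoter itself there was a weaker candidate 653 bp upstream, of signal 32.3 and rank 9835, which lay 5 bp past the start of the divergent gene pqn-21. It was held by both replicates, at ranks 12907 and 5984.

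The cyclin D gene cyd-1 (WBGene00000870, II:12980591-12993117), the longest of the 9 at 12527 bp, held 5 pooled candidates, with signals of 24.1 to 37.3. The strongest, at rank 6099, was in an intron 1463 bp past the second start site and 37 bp upstream of the start of the non-coding RNA gene Y38F1A.12. Replicate 5 placed it at rank 4174 and replicate 4 at rank 23515. A candidate of signal 32.7 lay 55 bp past that second start site and was held by both replicates, at ranks 19267 and 16203. Another, of signal 24.6 and rank 20471, lay 209 bp upstream of the first start site. Replicate 5 held its summit, at rank 5746, and replicate 4 did not. The cyclin D kinase gene cdk-4 (WBGene00000406, X:13515856-13518911) had 1 pooled candidate in its first intron, 545 bp past the start, with a signal of 29.9 and rank 12370. Replicate 4 held that summit, at rank 12316, and replicate 5 did not. Among all genes, 24.0% had a stronger pooled region than cyd-1 and 41.1% a stronger one than cdk-4.

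The kinase inhibitor gene cki-1 (WBGene00000516, II:7811240-7812105) had 4 pooled candidates, none in the thresholded set. Their signals were 22.5 to 28.3, and the strongest, at rank 14544, lay 485 bp upstream of the start. Both replicates held it, at ranks 15365 and 27335. Replicate 5 had a stronger region of its own 1518 bp upstream, at rank 2415 with signal 17.0, that matched no pooled summit. Just beyond the upstream edge of its window lay a stronger region. This pooled region of signal 61.7 and rank 958, below the weakest thresholded signal of 74.7, had its summit 2054 bp upstream, 54 bp outside the window and 17 bp upstream of the start of the non-coding RNA gene T05A6.15. It was at rank 862 in replicate 4 and its summit was in no region of replicate 5. Inside the edge, the farthest upstream candidates were those at 1865 bp for cyd-1, of signal 24.1, and at 1837 bp for cki-1, of signal 24.4. At the other edge, 5 of the listed genes had a pooled summit within 500 bp past the gene end. The strongest of these regions, of signal 44.6, lay 131 bp past the end of dpl-1 and 229 bp past the start of T23G7.2.

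The PCNA gene pcn-1 (WBGene00003955, IV:4047937-4049448) had the strongest region of the 9. The region on chromosome IV at 4049490-4049933 had its summit 264 bp upstream of the start site, a pooled signal of 108, rank 176 and a −log10 q of 2.07. No other gene's window held that summit, and the nearest start site on the far side was that of wrt-5, 862 bp away. Replicate 4 placed the region at rank 174 with signal 83.3, with a summit 1 bp from the pooled one. Replicate 5 divided the stretch between 2 regions, at rank 541 with signal 24.6 and a summit 75 bp upstream of the start, and at rank 1800 with signal 18.2 and a summit 274 bp upstream. Replicate 5 also had a region in pcn-1 coding sequence, 1139 bp past the start, at rank 1092 with signal 20.6, where the pooled candidate had a signal of only 25.7 and rank 18478 and replicate 4 held none. A further 2 candidates, of signal 40.1 and 22.3, lay 1230 bp and 1543 bp upstream, 104 bp and 417 bp upstream of a start site of wrt-5, a hedgehog-related gene, and within its introns.

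The replicates ranked the 4 thresholded regions differently. When the strongest regions of each replicate were taken in the same number as the thresholded set, all 4 were among those of replicate 4, where 2.65% of all genes had such a region. Only that of cye-1 was among those of replicate 5, where 2.72% of genes had one. At pcn-1 the replicate 5 region of rank 541 fell just outside, and its summit was 189 bp from the pooled one. The replicate 5 region with the nearer summit was at rank 1800. Taking each replicate alone thus gave 4 of 9 genes from replicate 4 and 1 of 9 from replicate 5. Over all thresholded regions the median rank was 264 in replicate 4 and 350 in replicate 5, and 48.5% were among the strongest of both. Set against those medians, pcn-1 and cye-1 were stronger than the median thresholded region in replicate 4 and weaker in replicate 5, and efl-1 and lin-35 were weaker in both. Of the 19 pooled candidates at these genes outside the thresholded set, 7 (36.8%) had their summit in a region of both replicates, against 33.9% of all such candidates.

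**Figure D2:**
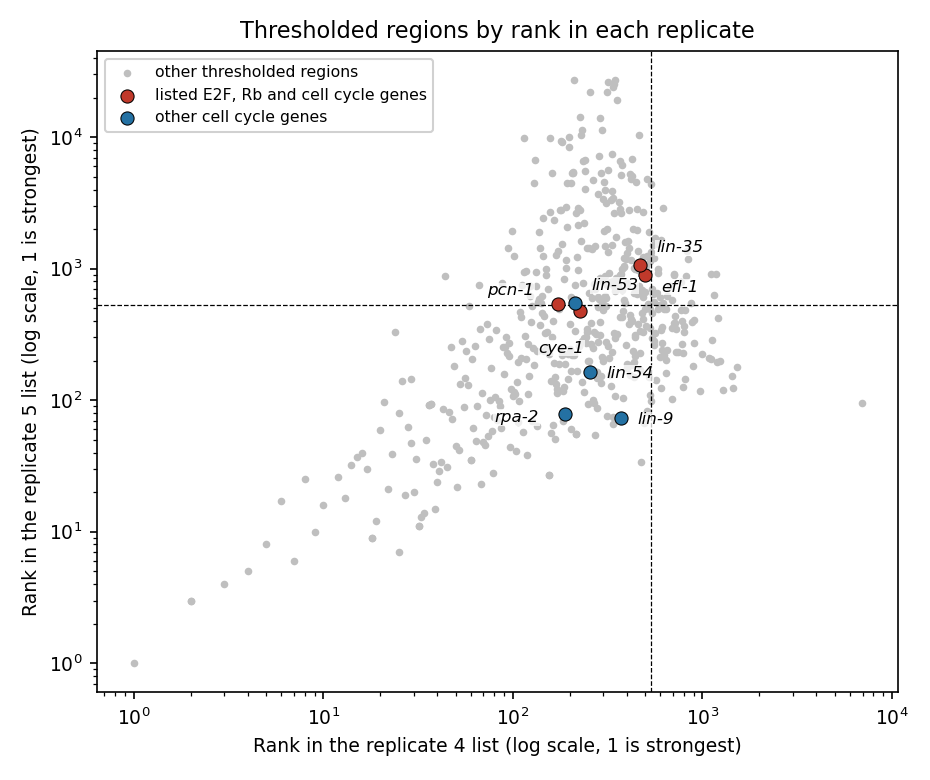
Rank of each thresholded region in the replicate 4 list (x axis, log scale) and in the replicate 5 list (y axis, log scale), where 1 is the strongest; red points are the listed genes, blue points other cell cycle genes and grey points the rest of the 527 regions held by both lists, and dashed lines mark the rank equal to the size of the thresholded set. The points for pcn-1, lin-35 and efl-1 lie left of the vertical line and above the horizontal one, from rank 541 in replicate 5, and cye-1 lies inside both. For pcn-1 the replicate 5 rank is that of a region with its summit 189 bp from the pooled one.

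Ordered by strongest pooled signal, the 9 genes ran pcn-1, cye-1, efl-1, lin-35, dpl-1, cyd-1, cdk-4, cki-1 and efl-2. Both replicates kept the order of cye-1 above efl-1, of lin-35 above dpl-1, of cyd-1 above cdk-4 and of cki-1 above efl-2. The last of these was nearly a tie in replicate 4, with signals of 22.44 and 22.43, and cyd-1 and cdk-4 were close there, at 24.65 and 24.19. A gene's strongest region in a replicate was not always its strongest pooled one, as for cki-1, where it lay 120 bp past the start in replicate 4 and 1518 bp upstream in replicate 5. For the other neighbours, pcn-1 and cye-1, efl-1 and lin-35, dpl-1 and cyd-1, and cdk-4 and cki-1, only 1 replicate had that order, so these pairs were not separated. The regions next to those of the 4 genes in pooled rank, which are alike in pooled signal but not necessarily in each replicate, lay nearest F58D5.5 and C04A11.5 for pcn-1 (108 and 107.9), Y55B1BR.8 and F43E12.1 for cye-1 (102.3 and 102.1), nhr-35 and chd-7 for efl-1 (82.0 and 81.8), and fust-1 and pptr-1 for lin-35 (81.0 and 80.7).

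A further 76 genes were taken in 6 lists, 5 of cell cycle genes and 1 of partners of lin-35. Of these genes, 4 had a thresholded summit in their window, and 3 of those were partners of lin-35. The partner list, DREAM subunits and other synMuv B genes, had 3 of 11: lin-9, lin-53 and lin-54, which encode DREAM subunits. The list of replication fork and nucleotide supply genes had 1 of 20, rpa-2, which encodes a subunit of the single-strand DNA binding protein RPA. The other lists had 0 of 9 cyclin and kinase genes, 0 of 14 genes for kinase inhibitors, CDC25, Wee1 and ubiquitin ligases, 0 of 15 licensing genes and 0 of 7 checkpoint genes. The share over all genes in this window was 2.73%, as above. The median strongest signal was 49.6 over the 10 genes of the partner list with a candidate. It was 36.4 over the 64 genes of all 6 lists with a candidate, against 32.4 over all 13898 genes with one. The lists were written with earlier results known, in which lin-53 already appeared, so the count is a description.

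**Figure D3:**
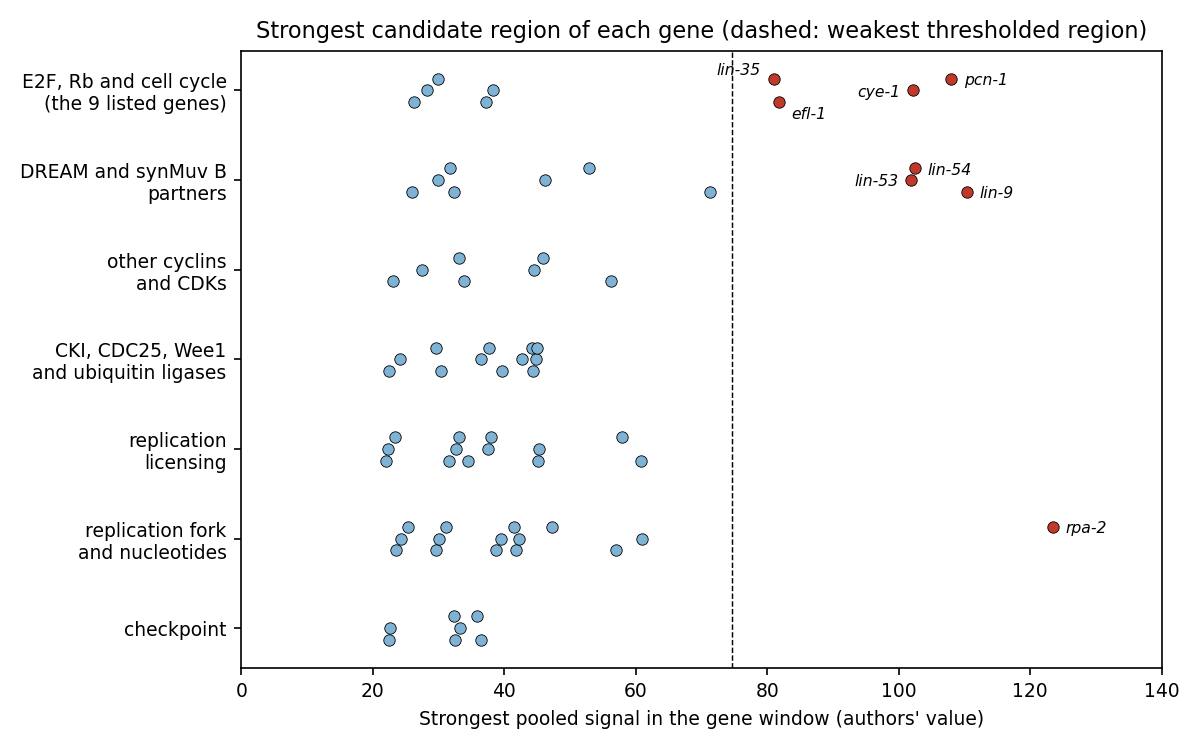
Strongest pooled signal in the window of each gene (x axis, the authors' value), by list (y axis); red points have a thresholded region and the dashed line marks the weakest thresholded signal, 74.7. Red points appear in the listed genes, in the DREAM and synMuv B partners (signals of 102 to 110) and at rpa-2 (124); points are spread vertically only to separate them, and genes with no candidate are not shown.

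The lin-53 region, on chromosome I at 9619770-9620213, had a pooled signal of 102 and rank 221. Its summit was 232 bp upstream of lin-53 and 235 bp upstream of the divergent gene nra-2, and its ranks were 212 in replicate 4 and 552 in replicate 5. The rpa-2 region, at 4769480-4769923 on the same chromosome, was the strongest of this set, with a signal of 124, rank 120 and ranks of 189 and 79 in the replicates. Its summit was 590 bp upstream of rpa-2 and 639 bp upstream of the long non-coding RNA gene M04F3.7.

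The partner lin-52, another DREAM subunit gene, was just below the threshold. Its strongest pooled region, of signal 71.4 and rank 607, was 1457 bp upstream. That summit also lay in the gene or promoter windows of the protein-coding genes ZK632.9 and ZK632.11, so the region cannot be given to lin-52 alone. Replicate 5 had a separate region 9 bp from the lin-52 start at rank 448. The next in that list was lin-15B, of signal 52.9 in coding sequence. Among genes without a thresholded region, the 2 of highest signal in each other list were cdc-7 (60.8) and orc-3 (58.0) among licensing genes, rfc-3 (61.0) and pole-1 (57.0) at the fork, cdk-1 (56.3) and cdk-7 (45.8) among kinases, wee-1.3 (45.01) and lin-23 (44.9) among regulators, and cep-1 (36.4) and chk-1 (35.8) among checkpoint genes.

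The regions of lin-9 and lin-54 are printed beside those of efl-1 and pcn-1 because the genes encode partners of EFL-1 and their regions hold the same kinds of letters. The lin-9 region, on chromosome III at 8904024-8904467, had a signal of 110 and rank 160, with ranks of 371 and 73 in replicates 4 and 5, and its summit was 115 bp upstream of lin-9 and 1369 bp upstream of unc-32. The lin-54 region, on chromosome IV at 13240483-13240926, had a signal of 102.5 and rank 213, with ranks of 255 and 165. Its summit was 339 bp upstream of lin-54 but only 54 bp upstream of the ribosomal protein gene rpl-12, and by nearest start site it belonged to rpl-12. The sequences below are the 201 bp around each summit, chrIII:8904146-8904346 on the minus strand for lin-9 and chrIV:13240605-13240805 on the plus strand for lin-54, with the same letters in capitals.
lin-9: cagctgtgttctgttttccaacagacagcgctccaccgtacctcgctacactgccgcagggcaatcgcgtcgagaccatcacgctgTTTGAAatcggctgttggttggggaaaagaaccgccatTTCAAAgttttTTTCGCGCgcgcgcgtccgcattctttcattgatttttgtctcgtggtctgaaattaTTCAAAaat
lin-54: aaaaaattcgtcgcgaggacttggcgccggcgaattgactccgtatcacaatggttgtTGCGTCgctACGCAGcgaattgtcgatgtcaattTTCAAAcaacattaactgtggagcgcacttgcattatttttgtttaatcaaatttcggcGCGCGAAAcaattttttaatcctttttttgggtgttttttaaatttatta

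E2F letters were found within 150 bp either side of the summit at 2 of the 4 thresholded regions of the listed genes, those of efl-1 and pcn-1, and at 3 of the 4 of the other cell cycle genes, those of lin-9, lin-53 and lin-54. The share was 6.74% over all thresholded regions and 7.72% over the 324 outside protein-coding genes. In the narrower window of 50 bp either side the efl-1 and lin-9 regions had a match, against 1.69% of thresholded and 1.86% of pooled regions. The efl-1 match is TTTCCCGC and the pcn-1 match is TTTCGCGC. In windows from 250 bp upstream to 50 bp downstream of the gene start, which need no binding region, the E2F letters were present at efl-1, pcn-1 and cyd-1, 3 of 9 genes, against 4.70% of all protein-coding genes. Cell cycle homology letters were found within 150 bp of the summits of efl-1, pcn-1, lin-9, lin-53 and lin-54, but 49.4% of all thresholded windows of that width hold them. Neither kind was within 150 bp of the summits at lin-35, cye-1 or rpa-2. A match gives letters only, and binding of E2F or LIN-54 was not measured.

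Of the letters frequent at this experiment's summits, AGAGAC was within 50 bp of the summit of efl-1 and cye-1, against 18.7% of thresholded and 5.31% of pooled windows. ACGCAG and GACGCA, which overlap, were in that of efl-1, against 14% and 12.4% of thresholded windows. Within 50 bp the windows of pcn-1 and lin-35 held none of the 5. Neither GAGAGA nor ACACAC was in any of the 4, against 21.9% and 17.6% of thresholded windows. Within 150 bp, GAGAGA was at lin-35 and cye-1, against 44.6% of thresholded windows. At that width ACGCAG and GACGCA were at both efl-1 and cye-1, against 27.7% and 24% of thresholded windows, and pcn-1 still held none of the 5. GC content within 50 bp of the summit was 51.5% for efl-1, above the median of 48.5% over all thresholded regions. It was below that median for cye-1 (46.5%), pcn-1 (45.5%) and lin-35 (38.6%).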

How the data were processed

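The deposited files are lists of regions on ce11, per the labels, from 2 samples of 1 group. Per the submitters' notes deposited with the files, each replicate's list of candidate regions, peaks with background, was derived from its alignments and 1 control, the pooled list from both replicates, and the thresholded list from these by the irreproducible discovery rate. No caller, aligner or threshold is stated (not given in the sources used here). The authors' signal value, −log10 q-value and summit offset were used as deposited. The lists hold no read counts, so depth is unknown. The 534 thresholded regions were checked to be the 534 of highest pooled signal.

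Summits, 1-based, were placed on Ensembl release 115 (WBcel235, the same assembly; all regions lay within its chromosome lengths). Distance was taken to the nearest start of any transcript. A replicate held a summit when one of its regions covered it, and the strongest such region is given. Python 3.11.15 was used, and windows, distances and letter matching were tested on simulated data. The tRNA gene name comes from RefSeq.

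The genes, lists and letters were chosen with earlier results of these data known. All 9 genes are named, as are genes sharing a thresholded region with them, those next in rank, and from the lists each gene with a thresholded region and 2 others of highest signal per list; regions of candidate rank and those beyond the window edges were described after their values were seen. The gene cdc-45 matched no symbol. With 1 group no test between conditions exists, and none was run. Alternatives changed the window, the link of region to gene, the threshold (the 267 strongest thresholded or 1068 strongest pooled regions), the replicates and the width of the sequence window.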

Additional observations from a re-analysis of the deposited data

How the results depend on the processing

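The count of 4 genes with a thresholded region stayed at 3 or 4 with upstream limits of 1000 and 500 bp, a window ending 200 bp past a start site, any overlap in place of the summit, the nearest start site, and a pooled list taken to 200% of the thresholded number. Over these settings the share of all genes ran from 1.79% with the 500 bp limit to 5.06% with the longer pooled list. With the strongest 50% of the thresholded regions the count was 2 (pcn-1 and cye-1, 1.40% of all genes). Leaving out replicate 4 gave 1 (cye-1, 2.72% of all genes) and leaving out replicate 5 gave 4 (2.65%). In the promoter window the count of 3 was 1 with the strongest 50% (pcn-1, 0.791% of all genes). It was 0 without replicate 4 (1.42%) and 3 without replicate 5 (1.52%). The pathway count of 4 became 7 with the longer pooled list, adding lin-52, cdc-7 and rfc-3. The share of all genes rose there from 2.73% to 5.06%. With the 500 bp limit the pathway count was 3, without rpa-2 (1.79% of all genes). By nearest start site it was 3, without lin-54 (2.38%). Without replicate 4 the pathway count was 4 (2.72%), with lin-52 in place of lin-53. Over E2F and cell cycle homology letters, regions with a match, counted once for each kind, numbered 2 within 50 bp of the summit and 4 within 150 bp, which is a wider window. Of 34 recomputed strongest signals 29 did not change. The 5 that did were efl-2 (22.3), cyd-1 (32.7) and cye-1 (32.3) with the window ending 200 bp past a start site, and dpl-1 (44.6) and cki-1 (61.7) with any overlap. For 2 (dpl-1 and cdk-4) no region was left. No paired analysis was possible because there is only 1 group. Depth is unknown, so a gene without a thresholded region is not shown to be unbound.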
